A study of Caenorhabditis elegans with 6 samples.

Results

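The genes described here act in oocyte maturation, in the building of the eggshell and in the maternal control of the early embryo of C. elegans. They are a list of 32 gene symbols chosen by function, though with earlier results of these data known. The genes were found on the arrays through the sequence name of each probe. Of the 32 genes, 31 had a probe, out of 18889 genes on the array, and 17 had enough usable spots for a test. lin-41, a regulator of oocyte growth and meiotic maturation, matched no probe and was not analysed here.

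Worms of the wild-type Bristol N2 strain were raised from eggs for 72 h at 16 °C with E. coli OP50 as food, in acetone alone (control) or with the low dose mixture (LDM) of the organophosphorus insecticides chlorpyrifos (CPF) and diazinon (DZN) dissolved in acetone. The doses were 0.5 for CPF and 1 for DZN, which the methods give in mg/l and the sample labels in mg/ml. Each sample held whole worms of 4 dishes at the L3 or L4 larval stage. An LDM sample and a control sample, labelled with Cy3 and Cy5, were hybridized together on each of 6 arrays of 60-mer probes, with LDM in Cy5 on 3 arrays and LDM in Cy3 on 3. The arrays are called by the dye of the LDM sample and their replicate number, and 3 values of 1 orientation are given in the order of replicates 1, 2 and 3. The methods describe the replicates as independent, but 1 control number appears in the scanner headers of LDM in Cy5 replicate 3 and also of LDM in Cy3 replicate 1. No source says whether that control RNA was shared, and the main tests and their intervals took the 6 arrays as independent.

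In the hermaphrodite gonad, germ cells leave mitosis, pass through meiotic prophase and grow into oocytes, which take up yolk made by the intestine through an endocytic receptor. The growing oocyte stores mRNAs under the control of RNA-binding proteins, and maturation, triggered by a signal from sperm, turns that control over to a set of kinases and degradation factors. Fertilization then starts the meiotic divisions on a small spindle and the secretion of eggshell material. The layers of the shell run from an outer vitelline layer through chitin to an inner layer of chondroitin proteoglycans. Most of these genes are used in adults and late larvae with a ripening germ line. The arrays therefore ask whether their transcripts differed between LDM and control worms collected at one age. RNA came from whole worms, so fewer oocytes and less RNA per oocyte cannot be told apart.

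The transcripts were within reach of the arrays. In the control channel 26 of the 31 genes with a probe exceeded the local background by more than 2 background SD on all 6 arrays, in the LDM channel 23 did, and 0 genes stayed below it on every array. The meaning of the image software's spot flags was inferred from the signal of the spots, with a single flag value read as unmarked. So read, 40 to 57.5% of the 40 probes of these genes were unmarked with LDM in Cy5. The share of all gene probes was 37.6 to 41.9%. With LDM in Cy3 these shares were 87.5 to 92.5% and 56.5 to 61.4%. Marked spots were left out of all tests. With LDM in Cy5, 15 of 24, 16 of 18 and 12 of 17 marked spots of these genes nevertheless exceeded background in both channels, beside 31.6 to 38.3% of all marked gene spots. An unmarked probe was left for 28 or 29 of the genes on each array with LDM in Cy3, but for 13, 20 and 18 genes with LDM in Cy5. A gene was tested with at least 2 unmarked spots in each orientation, and all values are log2 ratios of LDM over control, so that a positive value is a higher level with LDM.

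None of the oocyte, eggshell and maternal genes passed the test. In the limma model with an LDM and a dye effect, 0 of the 17 were higher and 0 lower at an adjusted p under 0.05, where 0.313% of all 7989 genes tested were called higher and 0.0626% lower (0.376% together). Without adjustment for the number of genes, 1 gene reached a p under 0.05 as higher (spn-4) and 1 as lower (mbk-2), beside 4.39% and 4.92% of all genes (9.31% together). The rank product, which compares the ranks of a gene's ratios over the arrays with those of permuted arrays, called 0 of them higher and 0 lower, against 1.31% and 0.476% of all genes (1.78% in either direction). Fitted log2 ratios ran from -0.41 (mbk-2) to 0.49 (spn-4), with 7 above 0 and 10 below. Their median was -0.05, beside -0.03 over all genes tested.

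**Figure D1:**
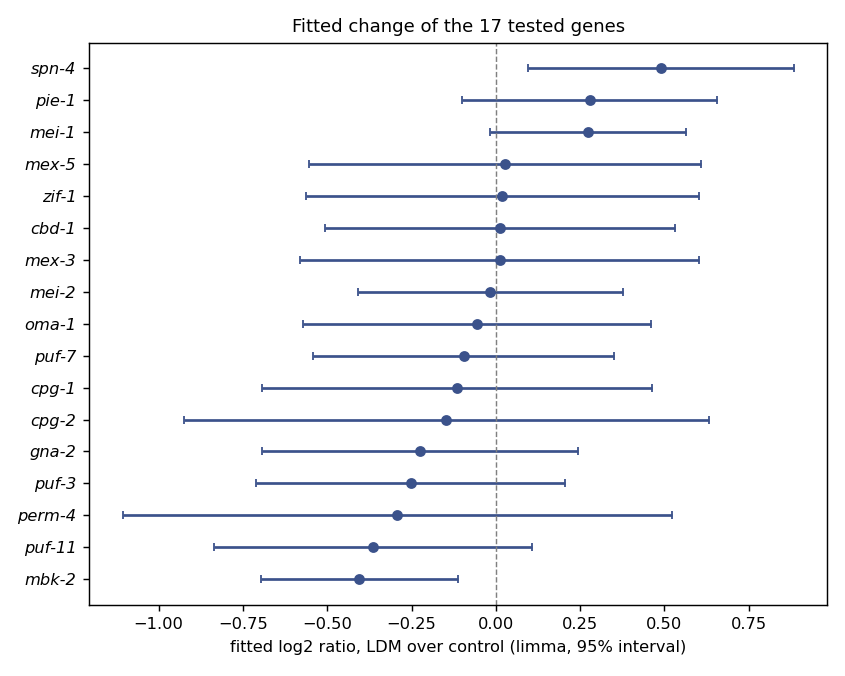
Fitted log2 ratio of LDM over control (horizontal axis) for each of the 17 tested genes, with the 95% confidence interval from limma as the bar. The intervals of 15 genes contain 0, and those of spn-4 (0.09 to 0.88) and mbk-2 (-0.70 to -0.11) do not, before adjustment for the number of genes tested.

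The ratios of these genes were spread widely between arrays. The median SD of a gene's ratio over the arrays was 0.586 for the 17 tested genes and 0.417 for all genes tested, and the median standard errors of the fitted ratio were 0.203 and 0.163. Of the 12 measured on all 6 arrays, 2 (spn-4 and mei-1) were above 0 on every array and 0 were below 0 on every array. Over all genes measured on 6 arrays, 2.42% were above 0 on every array and 3.25% below.

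**Figure D2:**
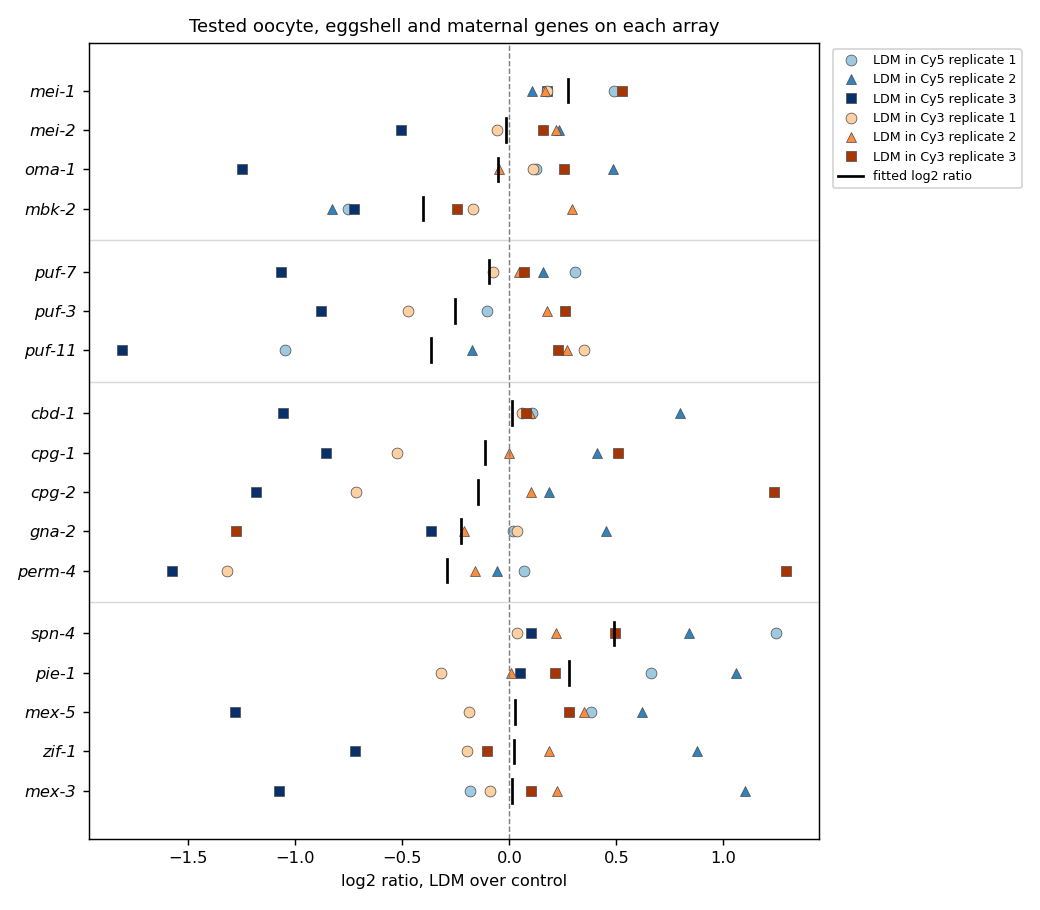
Log2 ratio of LDM over control (horizontal axis) on each array for the 17 tested genes, grouped from top to bottom as maturation and spindle, PUF proteins, eggshell layers and maternal regulators. Each point is 1 array, coloured by dye orientation and shaped by replicate number, and the vertical black mark is the fitted ratio. LDM in Cy5 replicate 3 (dark blue squares) holds the lowest point of 12 of the 17 genes, and mei-1 and spn-4 have all their points above 0.

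Among the genes of oocyte maturation and the meiotic spindle, mei-1 was the steadiest and mbk-2 the lowest. mei-1 encodes the catalytic subunit of katanin, which severs microtubules in the meiotic spindle. Its log2 ratio was 0.49, 0.11 and 0.18 with LDM in Cy5 and 0.18, 0.16 and 0.52 with LDM in Cy3. All 6 arrays lay above control, and the SD between them, 0.184, was the smallest of the tested genes here. The fitted ratio of mei-1 was 0.27 (standard error 0.125, limma adjusted p = 0.568), which did not pass. mei-2, the regulatory katanin subunit, had -0.02 (standard error 0.164), with the arrays between -0.51 and 0.23.

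mbk-2 encodes a DYRK-family kinase that marks maternal proteins, MEI-1 and OMA-1 among them, for degradation after the meiotic divisions. Its ratio was -0.76, -0.83 and -0.73 with LDM in Cy5 and -0.17, 0.29 and -0.24 on those with LDM in Cy3. All 3 arrays of the former lay below every array of the latter, and the share of all genes with such a separation was not counted. Over the 6 arrays mbk-2 had a fitted ratio of -0.41 (standard error 0.126, limma adjusted p = 0.386), and on the arrays with LDM in Cy3 alone its mean was -0.04. The dye effect of mbk-2 was -0.36 (unadjusted p = 0.0208 and adjusted p = 0.738 in limma).

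The probes of mbk-2 also differed among themselves. The array holds 5 probes for the gene, of which 3 could be tested, and the values above are those of the brightest. Its other tested probes had mean ratios of -0.04 and -0.30 over all spots, marked ones included, and the former was at 0.08, -0.13 and -0.79 with LDM in Cy5 and -0.01, 0.14 and 0.48 with LDM in Cy3. With the mean of the tested probes the fitted ratio of mbk-2 was -0.22, and with ratios scaled between arrays -0.23 (limma unadjusted p = 0.138 and 0.189).

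oma-1 and oma-2 encode near-redundant CCCH zinc finger proteins without which oocytes do not mature. The ratio of oma-1 was 0.12, 0.48 and -1.25 with LDM in Cy5 and 0.11, -0.05 and 0.25 with LDM in Cy3, so that 5 arrays lay close to control and LDM in Cy5 replicate 3 far below them. Its fitted ratio was -0.05 (standard error 0.222, interval -0.57 to 0.46). The probe of oma-2 was unmarked only on the arrays with LDM in Cy3, where its ratio was 0.00, 0.25 and -0.13, and it was not tested. The genes are related in sequence, so that some signal of each probe may belong to the other gene, which was not tested.

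The PUF proteins are Pumilio-family repressors of translation, and puf-3, puf-5, puf-6, puf-7 and puf-11 act during oocyte formation and in the early embryo. All 3 that could be tested had fitted ratios below 0, and 0 passed. puf-11 had the lowest, -0.36 (standard error 0.203, limma adjusted p = 0.648), which moved to -0.17 without LDM in Cy5 replicate 3 and to -0.57 without replicate 2 of that orientation. Its ratio was -1.05, -0.17 and -1.81 with LDM in Cy5 and 0.35, 0.27 and 0.23 on those with LDM in Cy3. The sign of puf-11 therefore followed the dye of the LDM sample on all 6 arrays, a pattern that 2.08% of all genes tested shared, while the opposite one was seen for 2.83% of them and for 0 of the 17 genes. The dye effect was -0.65 (unadjusted p = 0.0137, adjusted p = 0.738 in limma), and 0.025% of all genes passed for it after adjustment, 0 of the 17 genes among them. Without adjustment 2 of the 17 did, puf-11 and mbk-2, beside 6.13% of all genes. The orientations also differed in scanning. The photomultiplier setting for Cy5 was 50 on each array with LDM in Cy5 and 48 on each with LDM in Cy3. Median raw Cy5 intensities were 259 to 343 and 760 to 1126. What part the scan had in these dye effects was not tested. The other probes of puf-11 were unmarked only with LDM in Cy3, where their means were -0.04 (2 arrays) and -0.19 (3 arrays) and so opposite in sign to the 0.28 of the tested probe.

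puf-3, whose sequence is close to that of puf-11, had a fitted ratio of -0.25 (standard error 0.192). Its lowest ratio, -0.88, was on LDM in Cy5 replicate 3 and its highest, 0.26, on LDM in Cy3 replicate 3. puf-7 had -0.10 (standard error 0.192), from 5 arrays between -0.08 and 0.30 and LDM in Cy5 replicate 3 at -1.07. Of the untested members, puf-6 had 0.28, 0.24 and 0.35 with LDM in Cy3 and -0.80 on LDM in Cy5 replicate 3, its only unmarked spot in that orientation. puf-5, a close relative of puf-6 and puf-7, had 2 unmarked spots, at -0.31 and 0.15 on LDM in Cy3 replicates 1 and 2. Each of the 4 members measured on LDM in Cy5 replicate 3 had its lowest unmarked value there, and puf-11 was also low on LDM in Cy5 replicate 1. How often this held among all genes was not counted.

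rme-2, the receptor through which oocytes take up yolk, and cav-1, a caveolin of germ cell and embryo membranes, were not tested. rme-2 had -0.11 on LDM in Cy5 replicate 2 and -0.41, 0.41 and 0.30 with LDM in Cy3, so that its arrays lay on either side of control. The spots of cav-1 were marked on all 6 arrays and gave no ratio, although both channels exceeded the local background on each.

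The eggshell genes included the tested gene with the widest spread between arrays. As a group they were close to the maternal regulators, with a median SD of 0.596 against 0.586. Of the 8 eggshell genes, 5 were tested and 0 passed, with fitted ratios from -0.29 (perm-4) to 0.01 (cbd-1). perm-4, a component of the vitelline layer, had the largest SD between arrays of all tested genes here, 1.04. Its ratio was 0.07, -0.06 and -1.58 with LDM in Cy5 and -1.32, -0.16 and 1.29 with LDM in Cy3. The fitted ratio of perm-4 was -0.29 (standard error 0.350, limma adjusted p = 0.845), and its interval, -1.11 to 0.52, leaves its direction unsettled.

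perm-2, which acts with perm-4 in the vitelline layer, was unmarked on 4 arrays and was not tested. It had -0.23 on LDM in Cy5 replicate 2 and -1.83, -0.00 and 1.36 with LDM in Cy3. cpg-2, a chitin-binding chondroitin proteoglycan of the inner eggshell, had -0.72, 0.10 and 1.23 with LDM in Cy3, and on the other orientation 0.19 for replicate 2 and -1.18 for replicate 3. On LDM in Cy5 replicate 3 the LDM channel of cpg-2 did not exceed background. On the arrays with LDM in Cy3 perm-2, perm-4 and cpg-2 thus stood in the same order, low on replicate 1, near control on replicate 2 and high on replicate 3.

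cpg-1, the partner of cpg-2 in the inner layer, followed with -0.53, -0.00 and 0.51 on the arrays with LDM in Cy3. cpg-3, another chondroitin proteoglycan, was lower and less spread, at -0.49, -0.28 and 0.01. cbd-1, a chitin-binding protein that anchors the vitelline layer, differed from them: its ratio was 0.06, 0.09 and 0.08 on the same arrays, and its only values far from control were 0.80 for LDM in Cy5 replicate 2 and -1.06 for replicate 3. gna-2, which makes the sugar precursor of chitin, had 0.04, -0.21 and -1.28 with LDM in Cy3, with its lowest value where the perm and cpg genes had their highest. chs-1, the chitin synthase of the eggshell, was marked on every array and exceeded background in the control channel on 2 of 6.

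The contrast between LDM in Cy3 replicates 1 and 3 was picked after the values had been seen and is given as a description. Of 28 genes unmarked on both arrays, 18 (64.3%) were below control on replicate 1 and above it on replicate 3, and 1 the other way, beside 27.1% of all genes with the first pattern. A rise of more than 1 on the log2 scale from replicate 1 to replicate 3 was seen for 4 of them, perm-2, perm-4, cpg-2 and cpg-1, and for 6.41% of all genes. These 4 are among the 7 eggshell genes measured on both arrays. Their differences were 3.19, 2.61, 1.95 and 1.03, and no other member exceeded 0.84 (pos-1).

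egg-1, egg-2 and egg-3 are needed at the egg surface, the first pair for the entry of sperm and egg-3 for egg activation. Their probes were unmarked only on the arrays with LDM in Cy3. egg-1 had -0.31, 0.14 and 0.03, and egg-3 had -0.07, -0.03 and 0.20. The brighter probe of egg-2 had -0.22, -0.45 and 0.09, and its other probe -0.07 and 0.09 on replicates 1 and 3. All of these ratios were within 0.5 of control. The sequences of egg-1 and egg-2 are close, so that their probes may share signal, which was not tested.

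The maternal regulators of the early embryo include the highest ratio of the list, that of spn-4. spn-4 encodes an RRM protein that controls the translation of maternal mRNAs and the division axis of early blastomeres. Its ratio was 1.25, 0.84 and 0.10 with LDM in Cy5 and 0.04, 0.22 and 0.49 on those with LDM in Cy3. All 6 arrays lay above control, LDM in Cy5 replicate 3 and LDM in Cy3 replicate 1 only barely. The fitted ratio of spn-4 was 0.49 (standard error 0.170, limma adjusted p = 0.431, percentage of false positives 0.361 by rank product), which did not pass either test.

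pie-1 encodes a CCCH protein that keeps transcription off in the embryonic germ lineage. Its ratio was 0.66, 1.06 and 0.05 with LDM in Cy5 and -0.32, 0.01 and 0.22 with LDM in Cy3. The fitted ratio was 0.28 (standard error 0.163, limma adjusted p = 0.673), from a mean of 0.59 in the first orientation and -0.03 in the second, and was 0.16 without LDM in Cy5 replicate 2. For spn-4 and pie-1 alike the highest arrays were LDM in Cy5 replicates 1 and 2.

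mex-5 and mex-6, whose CCCH proteins set the anterior-posterior asymmetry of the zygote, mex-3, a KH-domain repressor, and zif-1, an ubiquitin ligase adaptor that removes CCCH proteins from somatic cells, lay near control after averaging. mex-5 had a fitted ratio of 0.03 (standard error 0.250), mex-3 0.01 (0.255) and zif-1 0.02 (0.244). The arrays behind these means were far apart: on LDM in Cy5 replicate 3 mex-5 was at -1.28, mex-3 at -1.08 and zif-1 at -0.72, and on replicate 2 of that orientation they were at 0.62, 1.10 and 0.88. The near-zero means of these genes thus held large values of opposite sign on this pair of arrays, while mex-3 and zif-1 lay between -0.20 and 0.22 on the others. The second probe of mex-3 had a mean of 0.69 with LDM in Cy3, against 0.08 for the probe tested. With LDM in Cy5 the second probe was at -1.04, 0.49 and -1.01. Over all 6 arrays its mean was 0.08, against 0.01 for the probe tested.

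Of the untested regulators, pos-1, a CCCH protein needed for posterior fates, had 0.79 on LDM in Cy5 replicate 2 and -0.24, 0.39 and 0.59 with LDM in Cy3. mex-1, a CCCH protein of the germ lineage, had 0.85 on LDM in Cy5 replicate 2 and -0.43, -0.70 and 0.17 with LDM in Cy3. On LDM in Cy5 replicate 2 the control channel of mex-1 did not exceed background. mex-6 had -0.42, 0.06 and 0.21 with LDM in Cy3 alone. Each of the 3 was below control on LDM in Cy3 replicate 1 and above it on replicate 3.

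The genes moved together from array to array. Their median ratio was 0.10, 0.43 and -0.88 with LDM in Cy5 and -0.09, 0.16 and 0.22 with LDM in Cy3, while that of all genes tested stayed between -0.04 and 0.00. On LDM in Cy5 replicate 2, 13 of 16 were above control, beside 48.9% of all genes. On LDM in Cy5 replicate 3, 14 of 17 were below it, beside 52.4% of all genes. Leaving out an array also takes genes out of the test. Over the 12 genes that could be tested whichever array was left out, the median fitted ratio was -0.02 on all arrays. It was -0.21 when LDM in Cy5 replicate 2 was left out and 0.23 when replicate 3 was. Without LDM in Cy3 replicate 1 it was 0.02. The sign of this median, close to 0 on all arrays, thus depended on which arrays were kept.

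Values on this pair of arrays were set side by side after they had been seen, as a description. Of 16 genes measured on both, 10 (62.5%) were above control on LDM in Cy5 replicate 2 and below it on replicate 3, 0 showed the reverse, and the median difference between the arrays was 1.32. Over all genes tested the first pattern was seen for 33.6% and the median difference was 0.10. The difference was largest for mex-3 (2.17), mex-5 (1.90) and cbd-1 (1.85), and spn-4, pie-1 and mei-1 were the 3 genes that stayed above control on both. Across all genes tested the ratios of these arrays were correlated at r = -0.38, although the labels and scanner headers give them the same dye orientation, and the direction was kept as the dyes give it.

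**Figure D3:**
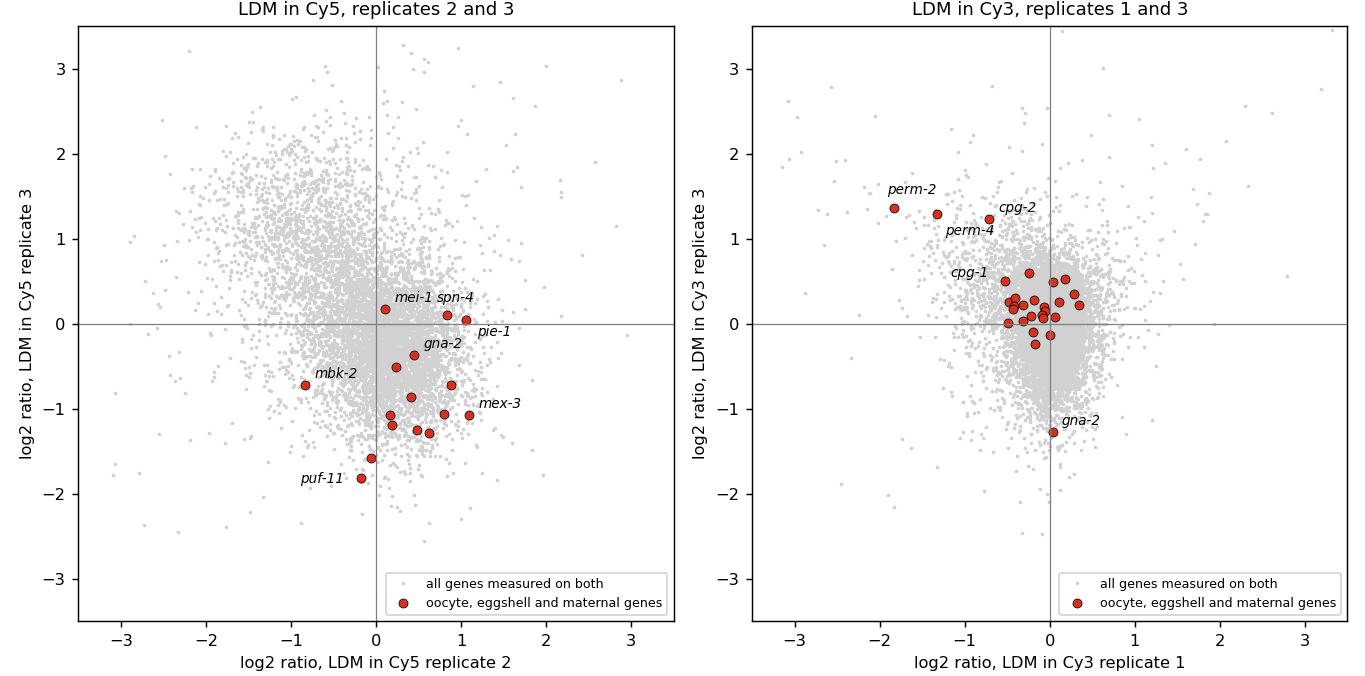
Log2 ratios of LDM over control on pairs of arrays of the same dye orientation, with LDM in Cy5 replicates 2 and 3 on the left and LDM in Cy3 replicates 1 and 3 on the right. Grey points are all genes measured on both arrays (a few lie beyond the axes) and red points the oocyte, eggshell and maternal genes, 16 on the left and 28 on the right. On the left 10 red points lie to the lower right of the origin, and on the right 18 lie to the upper left of it, led by perm-2, perm-4 and cpg-2.

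Other cell types moved on the same arrays. Germ cell genes (meiotic chromosome, P granule and small RNA factors) had medians of 0.57 on LDM in Cy5 replicate 2 and -0.71 on LDM in Cy5 replicate 3, and stayed between -0.03 and 0.00 on the arrays with LDM in Cy3. Sperm genes had -0.08 and -1.17 on that first pair of arrays, -0.95 on LDM in Cy3 replicate 1 and 0.80 on LDM in Cy3 replicate 3. The vitellogenins, the yolk proteins of the adult intestine, had -1.76 and -2.37 on the first pair and -2.93 and 2.44 on the second. On LDM in Cy5 replicate 1 and LDM in Cy3 replicate 2 they had -1.31 and -0.72. Of 5 tested vitellogenins, 4 passed the rank product as lower and 0 as higher, beside 0.476% and 1.31% of all genes. In limma 0 passed after adjustment. All 5 had fitted ratios below 0, with a median of -1.09. Muscle genes had 0.19 and -0.61 on the first pair, and neuronal genes -0.13 and 0.42. On LDM in Cy5 replicates 2 and 3 the oocyte, eggshell and maternal genes thus had the signs of the germ cell and muscle genes, and perm-2, perm-4 and cpg-2 had the signs of the sperm genes and vitellogenins on LDM in Cy3 replicates 1 and 3.

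In the control channel 27 of 28 germ cell genes, 22 of 29 sperm genes and 6 of 6 vitellogenins with a probe exceeded background on all 6 arrays, and 2 sperm genes did on none. The log2 of the summed level of the measured sperm genes ranged from 17.96 to 18.89 in control and from 17.54 to 18.78 in LDM, that of the germ cell genes from 16.68 to 17.32 and from 16.68 to 17.37, and that of the vitellogenins from 13.27 to 16.51 and from 12.19 to 15.58. Of 11 tested genes of the moult and the adult cuticle, 0 passed limma after adjustment. At an unadjusted p under 0.05 in limma 4 were lower and 0 higher, beside 4.92% and 4.39% of all genes. All 11 had fitted ratios below 0, with a median of -0.25, and 4407 of all 7989 genes tested were below 0. The array medians of these 11 were -0.57, -0.35 and -0.42 with LDM in Cy5 and 0.05, -0.19 and -0.18 with LDM in Cy3. What part these cell types, or the stage of the worms, had in the ratios of the oocyte, eggshell and maternal genes was not tested.

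**Figure D4:**
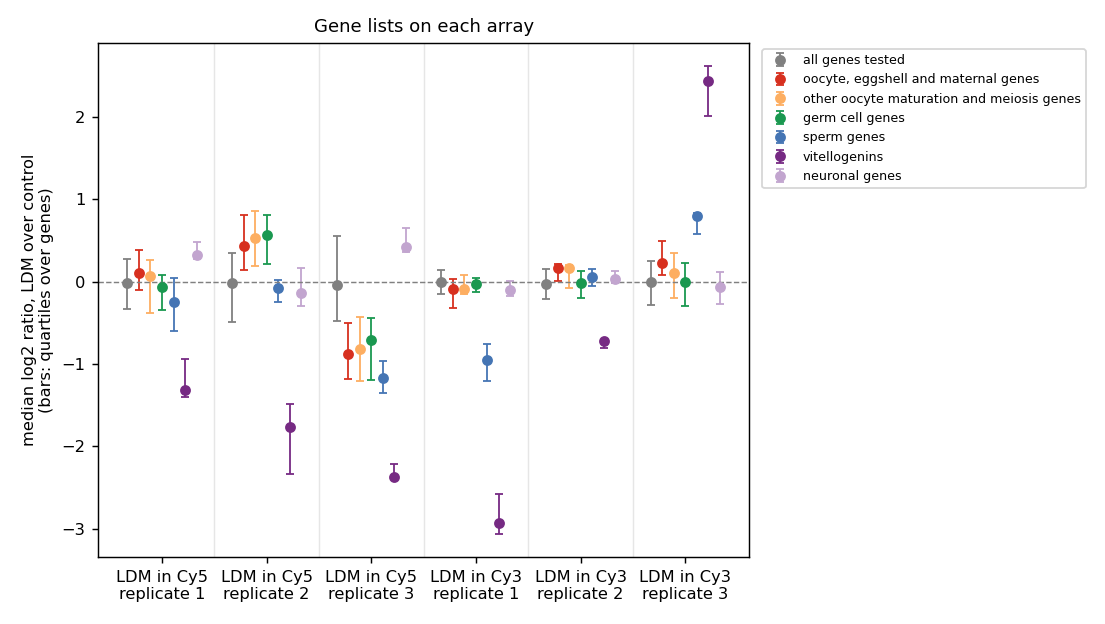
Median log2 ratio of LDM over control of each gene list (vertical axis) on each of the 6 arrays (horizontal axis), with bars from the lower to the upper quartile over genes. The oocyte, eggshell and maternal genes (red) are at 0.43 on LDM in Cy5 replicate 2 and at -0.88 on replicate 3, where the germ cell genes (green) are at 0.57 and -0.71, and the vitellogenins (violet) range from -2.93 to 2.44.

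Other genes of the same processes were read from lists made by function. Of 22 tested genes of oocyte maturation and meiosis, 0 passed limma in either direction. gsa-1, the G protein alpha subunit that promotes maturation from the gonadal sheath, passed the rank product as higher, with a percentage of false positives of 0.00789, in a list where 0 others did. Its ratio was 0.71 for LDM in Cy5 replicate 1, 0.50 for replicate 3 and 0.68, 0.75 and 1.16 with LDM in Cy3, above control on all 5 arrays measured, with a fitted ratio of 0.73 (standard error 0.149, limma adjusted p = 0.187). cdk-1, the kinase of maturation promoting factor, had the lowest ratio of that list, -0.61 (standard error 0.153, limma adjusted p = 0.259), and was below control on 5 of 6 arrays.

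Of 13 other tested genes of the eggshell and its permeability barrier, 0 passed either test in either direction. The highest was pod-2, an acetyl-CoA carboxylase of the barrier's lipids, at 0.47 (standard error 0.208, limma adjusted p = 0.551), and the lowest cyp-31A2, a cytochrome P450 of the same pathway, at -0.40 (standard error 0.140, limma adjusted p = 0.440). Of 23 tested genes of embryonic polarity and fate, 0 passed either test. They lay between -0.24 (cey-3, a Y-box RNA-binding protein) and 0.29 (pkc-3, the atypical protein kinase C of the PAR complex). The other genes of maturation and meiosis had a median of 0.53 on LDM in Cy5 replicate 2, against -0.82 for replicate 3, and those of polarity and fate 0.44 and -0.44. The other genes of the eggshell and its permeability barrier did not share that swing, with medians of -0.06 and -0.25 and 25% of the 12 measured on both arrays above control on the first and below it on the second.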

How the data were processed

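Scanner output of 6 arrays was used. As deposited by the authors, it holds the foreground and background intensity of each spot in Cy3 and Cy5, not background-corrected or normalized, and the percent of saturated pixels per spot. The deposited series table gives the authors' log2 ratios after loess within and Aquantile between arrays in limma; their version of limma is not given in the sources used here. The table was read as LDM over control on every array. So read, it gave 26 genes past the limma threshold, beside 30 with the recomputed ratios.

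Ratios were recomputed in limma 3.58.1 with R 4.3.3 by normexp background correction (offset 50), loess over unmarked gene spots and Aquantile, and turned by the dyes in the labels. A gene was represented by its brightest probe with 2 or more unmarked spots in each orientation. The model held an LDM and a dye effect, and p-values were adjusted over all 7989 genes by Benjamini-Hochberg, with 0.05 as threshold. The rank product was written anew with 100 permutations. Both were tested on simulated data. The number of arrays limits the precision.

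Probes were named through the RefSeq gene table of WBcel235, which 95.1% matched; the platform annotation names 32 of the 40 member probes, each with the same gene. Values on each array were given for the 3 highest and 3 lowest tested genes, those of largest and smallest SD, and the gene farthest from 0 in each role; those of other genes were added. The members and lists were chosen with earlier results of these data known. Alternatives were other background corrections and normalizations, the authors' ratios, marked spots, dim probes, all probes of a gene, no dye term, array weights, a replicate block and each array left out.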

Additional observations from a re-analysis of the deposited data

Results flagged for a closer look

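Over 18 sets of arrays, 17 of a gene's ratios and 1 of the list's medians, 2 had a lowest or highest array standing farther from the others than Dixon's 95% limit, which chance gives for about 1 in 20. oma-1 had -1.25 on LDM in Cy5 replicate 3, with its next lowest array at -0.05. puf-7 had -1.07 on the same array, with the next at -0.08. For puf-11 the orientations went opposite ways, with every array of LDM in Cy5 below control and every array of LDM in Cy3 above it; its dye effect was -0.65 and did not pass after adjustment (limma adjusted p = 0.738).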

How the results depend on the processing

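With 12 to 31 of these genes tested, 0 passed the rank product under all 19 alternatives. The rank product takes no model terms, so leaving out the dye term or adding array weights could not change its result. The replicate block could change it only through the genes kept. In limma 0 of these genes passed under 18 of the 19. With array weights 1408 genes passed (573 higher, 835 lower, 17.6% of all), and 4 of the 17 with them, spn-4 (0.68) and mei-1 (0.33) higher and mbk-2 (-0.33) and puf-11 (-0.37) lower; 4 of the 17 passed for the dye effect (11% of all genes), and for LDM 1 of 13 other eggshell, 4 of 22 maturation and 1 of 23 polarity genes. With scaled ratios 1 other maturation gene passed and puf-11 stood at 0.0086. On the arrays with LDM in Cy3 alone, a choice made after seeing the data, 15 genes passed, puf-11 was at 0.28 and pie-1 at -0.032. Leaving out each array gave 5 to 51 genes in place of 30, and 0 of the 12 to 17 of these genes then tested: 5 without LDM in Cy5 replicate 1, 51 without replicate 2, and 7, 6 and 8 without LDM in Cy3 replicates 1, 2 and 3. The median then ran from -0.23 (13 genes) to 0.23 (12 genes), and perm-4 from -0.63 (without LDM in Cy3 replicate 3) to 0.022 (without LDM in Cy3 replicate 1). LDM in Cy3 replicate 1 was image-analysed on another day than the other 5. The causes were not tested.

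Same-numbered arrays as a replicate block gave 29 genes and 0 of the 17. Their deviations correlated at -0.03, 0.41 and 0.23; as 1 pair did not correlate, the numbers were not taken to pair the samples, although 4 of 6 arrays correlated best with their own number. Few unmarked spots with LDM in Cy5 kept 14 genes with a probe out of the test.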
